A study of Mus musculus with 12 samples.

Results

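The fibulins and the microfibril genes that build elastic fibers were followed in cultured mouse hernia-associated fibroblasts (HAFs). The 10 genes looked for were Fbln1, Fbln2, Fbln5, Fbln7, Efemp1, Efemp2, Fbn1, Eln, Mfap4 and Mfap5, taken by symbol. Of these, 9 had a row among the 13233 genes listed, and Eln, which encodes the elastin precursor, is not analysed here. RNA-Seq measured the RNA of primary skeletal muscle fibroblasts from the lower abdominal muscle (LAM) of male Aromhum mice, which carry the human aromatase gene and its promoters as a transgene and develop scrotal hernias. All 12 samples share that genotype, were cultured at the same passage and were harvested at 48 h. The 4 groups, of 3 samples each, received vehicle (DMSO, ethanol), E2 at 10 nM, fulvestrant at 100 nM, or both agents at those doses. E2 is the estrogen estradiol, and fulvestrant is an estrogen receptor antagonist that also leads to receptor degradation. The replicate numbers 1 to 3 run across the groups. The sources do not say that they mark separate mice. The p-values of fits paired by replicate number measure only the spread of these samples left after that pairing, which may be technical.

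Elastic fibers give a tissue recoil. A scaffold of fibrillin microfibrils receives tropoelastin, the fibulins bring tropoelastin together with lysyl oxidases, and those enzymes cross-link it into an insoluble core. Fascia and tendon sheaths depend on these fibers, and mice without Efemp1 are known to develop hernias.

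The values of each library were whole multiples of a step, to within 0.05 of that step, which was taken as 1 read. This puts the reads on listed genes between 18827792 and 44040507 per library. The lowest value of any member was 905 normalized counts. A normalized count is the read count divided by a size factor of its library. All 9 fibroblast markers looked for were listed, whereas 0 of 8 myogenic, 0 of 5 adipocyte, 1 of 6 endothelial, 3 of 7 leukocyte and 2 of 4 Schwann cell markers were. Of the pericyte and smooth muscle markers 5 of 7 were listed, and of the tenocyte markers 3 of 3. Pgr, a textbook target of estrogen receptor α, was higher with E2 than with vehicle by 1.88 on the log2 scale (adjusted p = 0.0343) and lower with E2 plus fulvestrant than with E2 (log2 change −3.28). Esr1, the receptor gene itself, was lower with fulvestrant in both settings (log2 changes −2.26 with E2 and −1.46 without). Here and throughout, adjusted p is from limma fitted to all listed genes on log2(normalized count + 1) with the replicate number as a block, and "called" means that the adjusted p was below 0.05 with a fold change above 1.2.

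The stretch before the RefSeq transcript start is shown for 3 members that fell with fulvestrant, since the treatment acts on a DNA-binding receptor and these genes moved in the same direction. Coordinates are on GRCm38.p6, and bases in annotated exons were left out of the stretches shown. Capitals mark the letters TGANTCA of an AP-1 site and GGGCGG of a GC box, on either strand (CCGCCC is the GC box on the opposite strand), and these matches do not overlap each other.
Fbln5, chr12:101819120-101819369, minus strand: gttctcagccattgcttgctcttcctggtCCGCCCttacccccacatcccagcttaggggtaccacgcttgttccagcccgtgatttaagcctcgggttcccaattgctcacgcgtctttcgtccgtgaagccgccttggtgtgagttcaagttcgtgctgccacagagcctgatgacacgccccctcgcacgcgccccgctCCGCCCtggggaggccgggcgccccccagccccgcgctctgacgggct
Fbln7, chr2:128863682-128863931, plus strand: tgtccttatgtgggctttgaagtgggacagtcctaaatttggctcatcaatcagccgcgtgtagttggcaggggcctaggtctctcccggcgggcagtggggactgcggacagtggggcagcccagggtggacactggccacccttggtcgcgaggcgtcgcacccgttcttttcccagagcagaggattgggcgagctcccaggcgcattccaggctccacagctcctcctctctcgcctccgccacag
Efemp1, chr11:28852955-28853203, plus strand: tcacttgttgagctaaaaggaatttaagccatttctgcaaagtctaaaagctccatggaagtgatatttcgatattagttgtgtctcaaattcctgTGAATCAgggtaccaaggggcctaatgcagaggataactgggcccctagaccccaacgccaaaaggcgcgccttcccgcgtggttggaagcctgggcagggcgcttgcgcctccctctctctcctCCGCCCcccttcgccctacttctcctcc
Of the 9 listed members, 7 had an entry with the 250 bases before a start, 11 windows in all because some have several starts. The letters were counted in whole windows, exon bases included, for the members and for all genes alike. A full palindromic estrogen response element, the letters GGTCA and TGACC with 3 bases of any kind between them, was in 0 of the 11 windows and in 0.064% of 32817 promoter windows of the same length. Its half-site, GGTCA on either strand, was in 2 member windows, 1 of Efemp2 and a second Fbln5 start, against 35.2% of all windows. The AP-1 letters were in 1 member window, that of Efemp1 shown above, where they end 148 bases before the start, against 6.75% of all windows. GC boxes were in 8 of the 11 windows and in 32.7% of all, but the member windows ran from 46.4% to 78.8% GC, beside a median of 52.4% over all windows, and overlapping windows of the same gene count the same box again. The windows of Fbn1 and Fbln2 lie wholly in annotated exons, and the box of the second Fbln1 window also lies in exon bases. The TATA box letters TATAAA were in 0 of 11 windows and in 12.4% of all, both strands counted. A match is a run of letters and not a measured site, and the absence of a match says only that the letters are not in this window.

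Per length of exon, Fbln2 was the most abundant member in vehicle, at 8026 ± 413 normalized counts per kb (SD, n = 3). Fibulin-2 is a large fibulin that binds fibronectin, fibrillin-1 and basement membrane proteins. Mfap4, whose product binds elastin and fibrillin, came next with a mean of 3422 ± 3880 per kb, followed by Fbln7, a cell adhesion fibulin, at 3419 ± 2094. Efemp2, which encodes fibulin-4 and recruits lysyl oxidase to tropoelastin, was at 1709 ± 35.1 per kb, and Fbn1, which encodes the microfibril backbone fibrillin-1, was at 1233 ± 401. Fbln5, whose product tethers tropoelastin to microfibrils and cells, was at 1213 ± 1355 per kb. Lowest were Fbln1 (779 ± 76.6), Efemp1, encoding fibulin-3 (680 ± 177), and Mfap5, encoding a small microfibril glycoprotein (575 ± 234). The order has only 2 steps where neighbors did not overlap, from Fbln7 to Efemp2 and from Efemp2 to Fbn1. All other neighbors overlapped between samples.

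**Figure D1:**
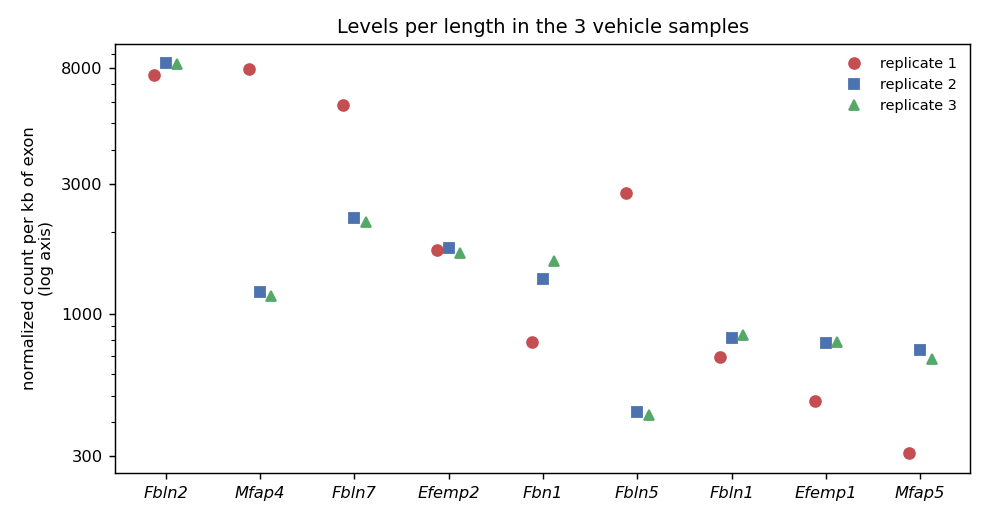
Normalized counts per kb of exon (log axis) of the 9 members in the 3 vehicle samples, ordered by mean; each point is 1 sample and its shape and color give the replicate number. Mfap4 in replicate 1 stood at 7903 per kb, against 1201 and 1164 per kb in the others.

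The spread within a group was mostly a gap between replicate 1 and the other replicates. In replicate 1 of vehicle, Mfap4 ranked first per kb and Fbln5 the fourth, while in replicates 2 and 3 Mfap4 ranked the fifth and Fbln5 last. Over the 4 groups, replicate 1 minus the mean of replicates 2 and 3 was 2.52 on the log2 scale for Mfap4, 2.23 for Fbln5 and 1.48 for Fbln7. The gap ran the opposite way for Mfap5 (−0.94), Fbn1 (−0.79) and Efemp1 (−0.47). Replicates 2 and 3 were close, with differences between −0.04 and 0.06 for every member. By the F test on the replicate number, 6 of 9 members differed (Mfap4, Fbln7, Fbln5, Mfap5, Fbn1 and Efemp1), against 62.5% of all genes. The replicate number took up 82.9% of the variance of Mfap4 and 86.4% of that of Fbln7, and the treatment 16.8% and 12.6%. Efemp2 was the reverse, with 83.4% of its variance between treatments and 3.01% between replicate numbers. The summed level of 3 tenocyte markers, Scx, Tnmd and Mkx, was also higher in replicate 1 (8049 to 12239 normalized counts) than in replicates 2 and 3 (1528 to 2646). Markers of pericytes and smooth muscle, of which 5 of 7 were listed, summed to 7469 to 8533 in replicate 1 and to 4720 to 6490 in the others. The 3 listed leukocyte markers summed to 285 to 487 in replicate 1 and to 168 to 269 in the others, and the listed endothelial marker, Tek, was lower in replicate 1 (58.4 to 83.7 against 157 to 277). Their part in the gap was not tested.

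**Figure D2:**
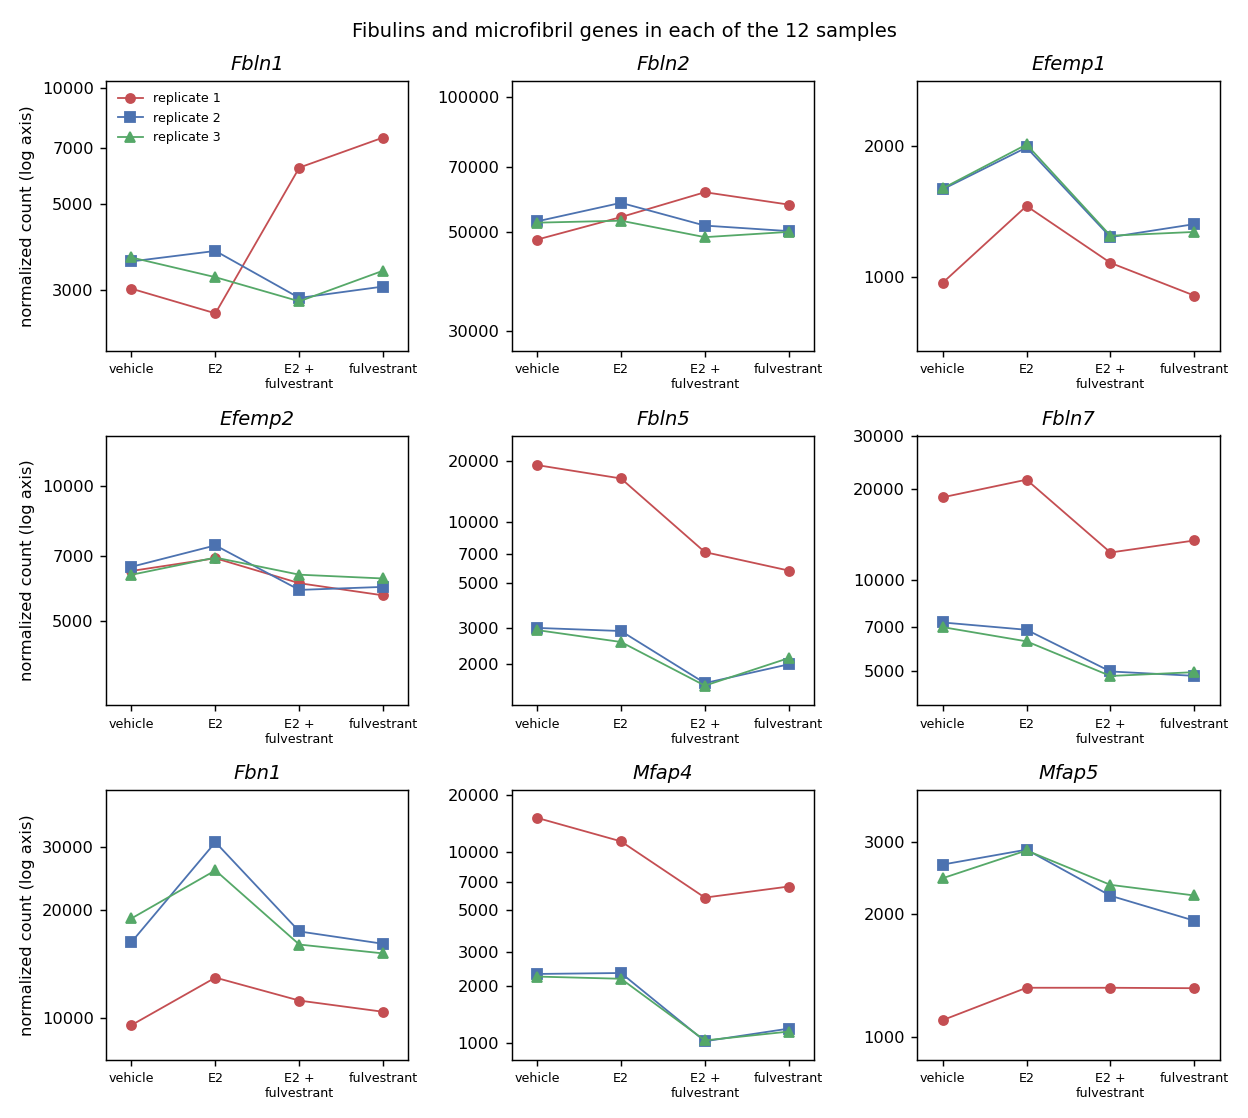
Normalized counts (log axis) of the 9 members in each of the 12 samples, by group; lines join samples of the same replicate number. Fbln5, Fbln7, Mfap4, Efemp1 and Efemp2 lie lower with fulvestrant along every line, and Fbln1 and Fbln2 split, rising in replicate 1 alone.

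The first question was what fulvestrant did in the presence of E2. Of the 9 members, 5 fell and 0 rose: Mfap4, Fbln5, Efemp1, Fbn1 and Fbln7. Among all genes, 4.62% were called lower, 4.97% higher and 9.6% in either direction. The median change of the members was −0.55 on the log2 scale, beside 0.01 for all genes. Members are not independent of each other, and since Fbln7 and Efemp1 were among the genes the study singled out with these samples, their falls are not independent evidence. The call for every member rests on pairing by replicate number: without that block 0 of 9 were called, 2 had an unadjusted p below 0.05, and 69 genes in all were called (0.521%). Without replicate 1 in any group, 7 of 9 were called lower, against 5.43% of all genes; the additional members were Mfap5 and Fbln1.

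Mfap4 (ENSMUSG00000042436, chr11:61485431-61488900) changed most. Its normalized counts with E2 were 11437, 2335 and 2178 in replicates 1 to 3, and with E2 plus fulvestrant they were 5801, 1025 and 1035. Each replicate number was lower with fulvestrant, although the groups overlapped because replicate 1 was high in both. The log2 change was −1.08 ± 0.07 (SE; adjusted p = 1.1e-05), so that the level fell by 52.7%. Without E2, vehicle samples held 15189, 2308 and 2236 and fulvestrant samples 6632, 1194 and 1151. That difference was −1.03 ± 0.07 (adjusted p = 2.0e-05), and Mfap4 was called in both contrasts in all of the 15 fits that left out a sample or a replicate number.

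Fbln5 (ENSMUSG00000021186, chr12:101746565-101819055) was 16483, 2909 and 2568 with E2 and 7135, 1609 and 1563 with E2 plus fulvestrant. It fell by 0.93 on the log2 scale (SE 0.20, adjusted p = 0.0131), with every replicate number lower. Leaving out a sample or a replicate number ended that call in 6 of 15 fits, among them those without replicate 1 of either group (the highest adjusted p of the 15 was 0.133). Vehicle samples held 19190.3, 3014 and 2939.9 and fulvestrant samples 5783, 1993 and 2139, a change of −0.93 ± 0.20 (adjusted p = 0.0107). In replicate 1 that difference was −1.73, against −0.60 and −0.46 in replicates 2 and 3. In the fit on those groups alone the adjusted p was 0.0669, so Fbln5 was not called there, nor was it without replicate 2 or without replicate 3.

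Fbln7 (ENSMUSG00000027386, chr2:128862981-128897034) was 21550.2, 6868 and 6289 with E2 and 12373, 4999.7 and 4831 with E2 plus fulvestrant. The log2 change was −0.55 ± 0.07 (adjusted p = 0.0011), a fall of 31.5%. Without E2 the values were 18841, 7262 and 7009 in vehicle and 13561, 4837 and 4974 with fulvestrant, a change of −0.52 ± 0.07 (adjusted p = 0.00127). The 6 paired differences lay between −0.80 and −0.38. With E2 the call held in all of the 15 left-out fits, and without E2 it was lost without replicate 2 (adjusted p = 0.0518).

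Efemp1 (ENSMUSG00000020467, chr11:28853204-28926743) was 1455, 1984 and 2016 with E2 and 1076, 1234 and 1243 with E2 plus fulvestrant, and the groups did not overlap. Its log2 change was −0.61 ± 0.09 (adjusted p = 0.0015). It was not called without replicate 2 or without replicate 3, where the adjusted p reached 0.0624. In cultures without E2 it was 968, 1589 and 1598 in vehicle and 905, 1322 and 1268 with fulvestrant, and the difference of −0.23 ± 0.09 missed the threshold (adjusted p = 0.0995). It was called there without replicate 1 (−0.30, adjusted p = 0.00607) and also without the vehicle sample of replicate 1 alone.

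Fbn1 (ENSMUSG00000027204, chr2:125300594-125507993) was 12974, 31042 and 25888 with E2 and 11189, 17467 and 16054 with E2 plus fulvestrant. Replicate 1 was the lowest in both groups, and the ranges overlapped. The log2 change was −0.58 ± 0.12 (adjusted p = 0.0115), and 6 of the 15 left-out fits did not call it, including those without replicate 2 or 3 of either group (adjusted p up to 0.155). Without E2 the difference was close to 0 (−0.07 ± 0.12, adjusted p = 0.731), with vehicle at 9554, 16311 and 18997 and fulvestrant at 10409, 16129 and 15162.

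Efemp2 (ENSMUSG00000024909, chr19:5473954-5482517) was 6908, 7378 and 6931 with E2 and 6075, 5869.5 and 6347 with E2 plus fulvestrant. These groups did not overlap, and the change of −0.21 ± 0.05 had an adjusted p of 0.024, but it was below the fold threshold and Efemp2 was not called. Without E2 it was 6469, 6609.9 and 6344 in vehicle and 5707, 5961 and 6224 with fulvestrant (−0.12 ± 0.05, adjusted p = 0.15).

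Mfap5 (ENSMUSG00000030116, chr6:122505845-122529290) was 1319.8, 2875 and 2862 with E2 and 1319.6, 2217 and 2357 with E2 plus fulvestrant (−0.22 ± 0.11, adjusted p = 0.229). In vehicle it was 1099.5, 2643 and 2447 and with fulvestrant 1316, 1926 and 2220.1 (−0.11 ± 0.11, adjusted p = 0.533). Replicate 1 moved the other way from replicates 2 and 3 in this contrast, and without it Mfap5 was called lower in both (−0.33 and −0.30).

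Fbln1 (ENSMUSG00000006369, chr15:85205949-85286535), which encodes a fibulin bound to fibronectin and elastic fibers, moved in opposite directions between replicates. It was 2607, 3781 and 3234 with E2 and 6211, 2858 and 2801 with E2 plus fulvestrant, so replicate 1 rose by 1.25 on the log2 scale while the others fell by 0.40 and 0.21. Without E2 it was 3019.5, 3552 and 3636 in vehicle and 7432, 3059 and 3362 with fulvestrant, with paired differences of 1.30, −0.22 and −0.11. Neither contrast was called (0.21 ± 0.31 and 0.32 ± 0.31; adjusted p = 0.707 and 0.531). Without replicate 1, Fbln1 was called lower with E2 plus fulvestrant than with E2 (−0.31, adjusted p = 0.0271).

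Fbln2 (ENSMUSG00000064080, chr6:91212455-91272540) stayed between 48093 and 61356 in all 12 samples. Its values with E2 were 54002, 58098 and 53001 and with E2 plus fulvestrant 61356, 51685 and 48704. The log2 differences were −0.04 (95% interval −0.27 to 0.19) with E2 and 0.04 (−0.19 to 0.27) without, where vehicle samples held 48093, 52821 and 52468 and fulvestrant samples 57568, 50241 and 50043. Neither was called, and the sign of its small difference changed between settings.

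In the absence of E2, 3 of the 9 members fell with fulvestrant (Mfap4, Fbln5 and Fbln7) and 0 rose, against 5.69% of all genes called lower and 6.76% higher (12.5% in either direction). Without the replicate block 0 of 9 were called there, and 72 genes in all were (0.544%). Without replicate 1, 5 of 9 were called lower (7.41% of all genes), with Efemp1 and Mfap5 added. All genes divided into 895 higher and 753 lower in this contrast, and into 702 higher and 958 lower when the libraries were scaled to the same total, while the same number of members was called. Averaged over cultures with and without E2, fulvestrant lowered 5 members, against 7.81% of all genes called lower, 7.71% higher and 15.5% in either direction: Mfap4 (−1.06 ± 0.05), Fbln5 (−0.93 ± 0.14), Fbln7 (−0.53 ± 0.05), Efemp1 (−0.42 ± 0.06) and Fbn1 (−0.33 ± 0.09). Of these, Efemp1 and Fbn1 were not called in the contrast without E2 (−0.23 and −0.07). In the average, Fbn1 was not called in 4 of the 15 left-out fits. These were the fits without replicate 2 or 3, without replicate 2 of E2 and without replicate 3 of E2 plus fulvestrant (adjusted p up to 0.204). Without the block 0 of 9 were called here too (2.34% of all genes), and without replicate 1, 6 of 9 were called lower (8.06% of all genes), Mfap5 being added. The summed level of the 9 fibroblast markers, to which the collagens and Dcn contribute, was also lower in every fulvestrant sample (381982 to 450240 normalized counts) than in any sample without it (476789 to 612604). Of these markers, Col1a1, Col1a2, Col3a1, Lum and Esr1 were lower with fulvestrant in each of the 6 pairs, Dcn, Pdgfra and Thy1 moved in both directions, and Vim was higher in each of the 6 (0.06 to 0.46 on the log2 scale). The tenocyte markers summed to 1528 to 8832 with fulvestrant and 2396 to 12239 without, and these ranges pool replicate 1 with the others. Within replicate numbers Tnmd (−1.74 to −0.32 on the log2 scale) and Mkx (−0.90 to −0.25) were lower with fulvestrant in each of the 6 pairs and Scx in 5 of 6. The 2 listed Schwann cell markers summed to 114 to 150.2 with E2 plus fulvestrant against 159 to 214 with E2, and to 112 to 171 with fulvestrant against 181 to 223 with vehicle. The part of these markers in the members' changes was not tested. In these bulk cultures, fewer cells of a kind and less RNA per cell cannot be told apart.

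**Figure D3:**
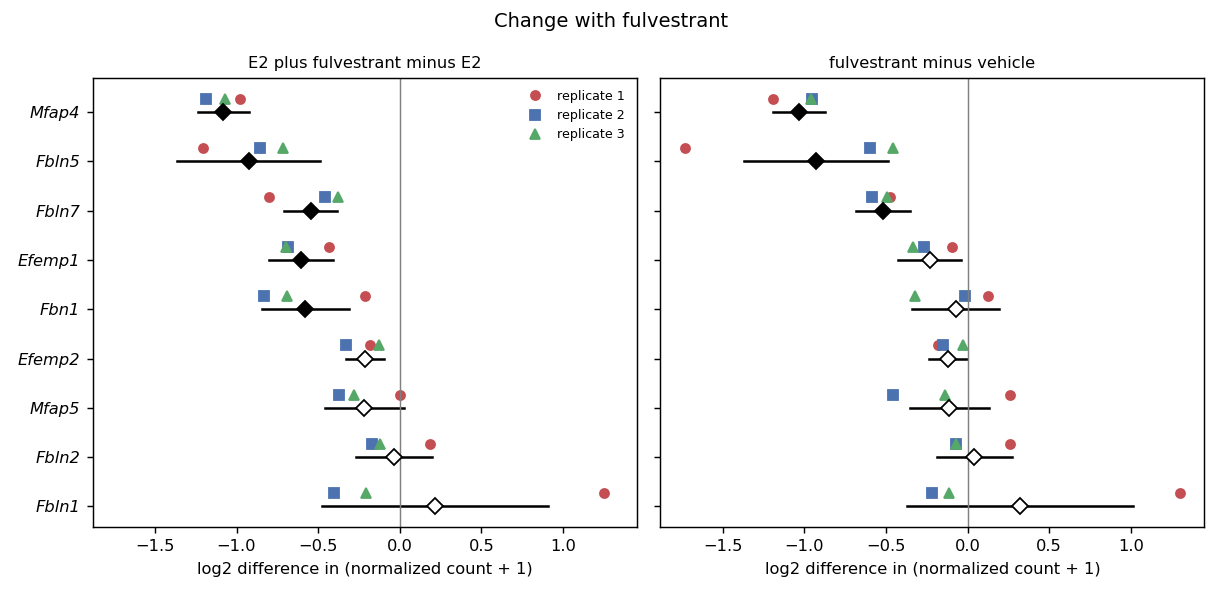
Log2 differences with fulvestrant, in the presence of E2 (left) and without it (right). Colored points are the differences within each replicate number, diamonds the fitted change with its 95% interval, and filled diamonds were called; 5 members were called on the left and 3 on the right.

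The second question was whether E2 itself moved these genes. By limma, 0 of 9 members were called between E2 and vehicle, 3 had an unadjusted p below 0.05, and among all genes 10 were called (0.0756%) and 1340 had an unadjusted p below 0.05. Fbn1 was higher with E2 in each replicate number (0.44, 0.93 and 0.45), for a log2 difference of 0.61 ± 0.12 (adjusted p = 0.213). Efemp1 differed by 0.41 ± 0.09 (adjusted p = 0.213) and Efemp2 by 0.13 ± 0.05 (adjusted p = 0.476), again higher in 3 of 3. Without replicate 1, Fbn1 alone of the members was called (0.69, adjusted p = 0.0181), against 0.385% of all genes called higher. The same E2 samples enter the contrast of E2 plus fulvestrant with E2, so these values and the falls of Fbn1 and Efemp1 there are not separate observations. Fbln7 and Mfap4 stayed near vehicle, at −0.01 (95% interval −0.18 to 0.15) and −0.14 (−0.30 to 0.01).

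With fulvestrant present, E2 left 0 of 9 members called by limma, and 1, Mfap4, had an unadjusted p below 0.05 (−0.19 ± 0.07, lower in 3 of 3). Among all genes 0 were called and 255 had an unadjusted p below 0.05. Fbn1 differed by 0.10 ± 0.12 in these cultures. Whether the change with fulvestrant depended on E2 was tested by the interaction term. By limma it called 0 of 9 members and 0 genes in all, while 2 members and 501 genes had an unadjusted p below 0.05. These were Fbn1 (−0.50 ± 0.17) and Efemp1 (−0.37 ± 0.12), both with an adjusted p of 0.944 by limma. For Fbln5 the interaction was 0.00 ± 0.28, and for Mfap4 −0.05 ± 0.10, with a 95% interval from −0.27 to 0.18. A difference between the fulvestrant contrasts with and without E2 was therefore not shown for any member.

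**Figure D4:**
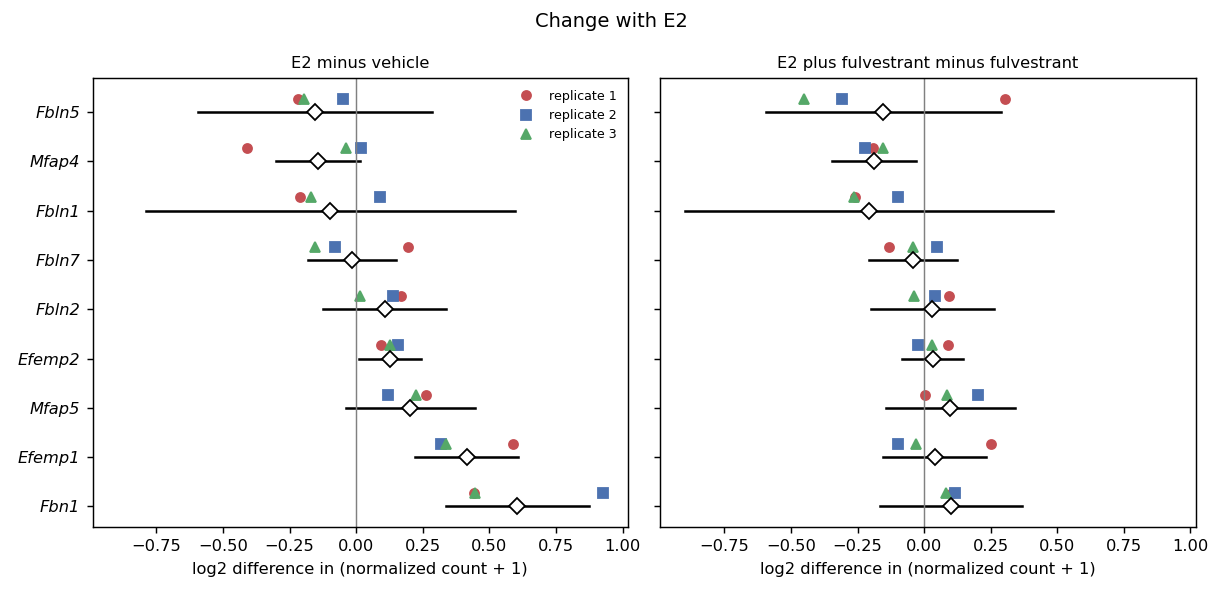
Log2 differences with E2, without fulvestrant (left) and with it (right). Colored points are the differences within each replicate number and diamonds the fitted change with its 95% interval; all diamonds are open because 0 members were called, and Fbn1 and Efemp1 lie highest on the left.

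After the mean of each replicate number was taken off, Mfap4, Fbln5 and Fbln7 varied together over the 12 samples (Pearson r of 0.90 to 0.93 between pairs), and so did Efemp1 with Efemp2 (0.87) and with Fbn1 (0.85). Fbln1 ran against Fbln5 (−0.60), but fulvestrant moved them in opposite directions only in replicate 1. In replicates 2 and 3 both were lower with fulvestrant, with and without E2. These correlations are descriptions over samples that share treatments and libraries. The genes whose pattern was most like that of Mfap4, the member that fell most, were Fam198a (r = 0.99), Serpine2, a serine protease inhibitor (0.99), and Gas2, a cytoskeletal protein (0.99). With all samples and the replicate block, no member had a called rise.

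The other genes of the elastic fiber pathway were taken from 6 lists of 66 genes, of which 55 were listed in the data. With E2 present, 12 of the 55 fell with fulvestrant and 8 rose; without E2, 16 fell and 9 rose. Over all genes, 4.62% were called lower and 4.97% higher with E2, and 5.69% lower and 6.76% higher without, and these shares are also the background of the counts by list that follow. Nothing particular to a list was tested. The median change over the 55 was −0.06 with E2 and 0.02 without, beside 0.01 in both contrasts for all genes. Without the replicate block 1 and 0 of the 55 were called. In fits that left out a replicate number, 5 to 18 fell and 2 to 8 rose with E2, and 2 to 18 fell and 4 to 8 rose without, the lowest counts being those without replicate 2 or 3. Of the 20 genes called with E2, 14 lost the call in at least 1 of the fits that left out a sample or replicate number, and of the 25 called without E2, 19 did. With E2, 3 rose without replicate 1 of E2 plus fulvestrant, and 5 without its replicate 2 or without replicate 3 of E2. Without E2, 10 fell without replicate 3 of vehicle.

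Among the other microfibril proteins, 5 of 10 fell with E2 present and 0 rose (4.62% and 4.97% of all genes). The largest called falls were those of Hmcn1 (−1.13 ± 0.18), which encodes the fibulin-related hemicentin-1, and of the latent TGF-β binding proteins Ltbp1 (−0.73 ± 0.11) and Ltbp2 (−0.39 ± 0.10). Ltbp1 was among the genes the study chose on these samples. Ltbp2 lost its call when any 1 of the E2 samples was left out, and also without replicate 2 or without replicate 3. Fbn2, encoding fibrillin-2, was at −0.76 ± 0.23 (adjusted p = 0.0527) and Mfap2 at −0.48 ± 0.14 (adjusted p = 0.0535). Without E2, 6 of 10 fell, among them Fbn2 (−1.02 ± 0.23, or −0.67 without replicate 1 of vehicle), Hmcn1 (−0.99 ± 0.18) and Mfap2 (−0.58 ± 0.14). Ltbp4, which works with fibulin-5 in elastin deposition, was at −0.22 ± 0.08 and −0.24 ± 0.08 and was not called in either.

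Of 9 cross-linking genes, 1 rose and 1 fell with E2 present. These were Loxl4 (0.47 ± 0.08), a lysyl oxidase, and Postn (−0.75 ± 0.10), which encodes the matricellular protein periostin. Without E2, 2 rose and 2 fell: Loxl4 (0.74 ± 0.08), Loxl2 (0.37 ± 0.09), Postn (−0.96 ± 0.10) and Loxl1 (−0.77 ± 0.22). Loxl1, the oxidase that fibulin-5 binds, was 12055, 11646 and 11379.5 in vehicle and 3739, 9193 and 9378 with fulvestrant, lower in each replicate number and most so in replicate 1. Without replicate 1 its change was −0.31, still called, and it was not called in 10 of the 15 left-out fits, among them those without replicate 1 of vehicle (−0.48) or of fulvestrant (−0.45). With E2 present its change was −0.70 ± 0.22 (adjusted p = 0.0674). Lox, the main lysyl oxidase of elastin, was not called (0.12 ± 0.13 and 0.04 ± 0.13).

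ADAMTS and ADAMTSL proteins are secreted proteases and protease-like proteins, several of which bind fibrillin. With E2 present 4 of 10 fell and 2 rose (4.62% and 4.97% of all genes), and without E2 6 fell and 1 rose (5.69% and 6.76%). Adamts6, which the study chose on these samples, was among the falls in both contrasts (−0.40 and −0.44). Adamtsl1 fell most (−1.50 ± 0.12 and −1.14 ± 0.12), and Adamts4, a versican-cleaving protease, fell by 1.13 and 0.92. Thsd4, a fibrillin-1 binding protein, fell by 0.91 and 0.80, but was not called in either contrast without replicate 2 or without replicate 3. Adamtsl3 was called without E2 (−0.99 ± 0.23), where its change was −0.49 without replicate 1 and −0.65 without replicate 1 of vehicle, both still called.

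Of 7 proteoglycans and convertases, 1 rose in each contrast and 0 fell: Vcan, encoding versican, by 0.77 ± 0.19 with E2 and 1.10 ± 0.19 without. With E2, the change of Vcan was 0.42 without replicate 1, still called, and 0.47 without replicate 1 of E2 plus fulvestrant, not called. Among 11 elastin receptor and integrin genes, 2 rose and 0 fell with E2 present, Lgals3, encoding galectin-3 (1.22 ± 0.12), and Itga5, a fibronectin receptor chain (0.47 ± 0.05). Without E2, 3 rose and 1 fell, and the largest called changes were those of Lgals3 (1.55 ± 0.12), Itga5 (0.64 ± 0.05) and Itgb8 (−0.39 ± 0.11). Of 8 proteases and inhibitors, 2 rose and 2 fell with E2 present. The gelatinase Mmp9 (−0.86 ± 0.19) and the metalloproteinase inhibitor Timp3 (−0.85 ± 0.17) were lower, and the inhibitors Timp1 (0.54 ± 0.11) and Timp2 (0.42) were higher. None of these was called with E2 present in the fits without replicate 2 or without replicate 3. Timp2 was not called without replicate 1 either, nor in several fits that left out a single sample. Without E2, 2 rose and 1 fell: Timp1 (0.87 ± 0.11), Timp2 (0.46 ± 0.11) and Mmp9 (−0.95 ± 0.19).

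**Figure D5:**
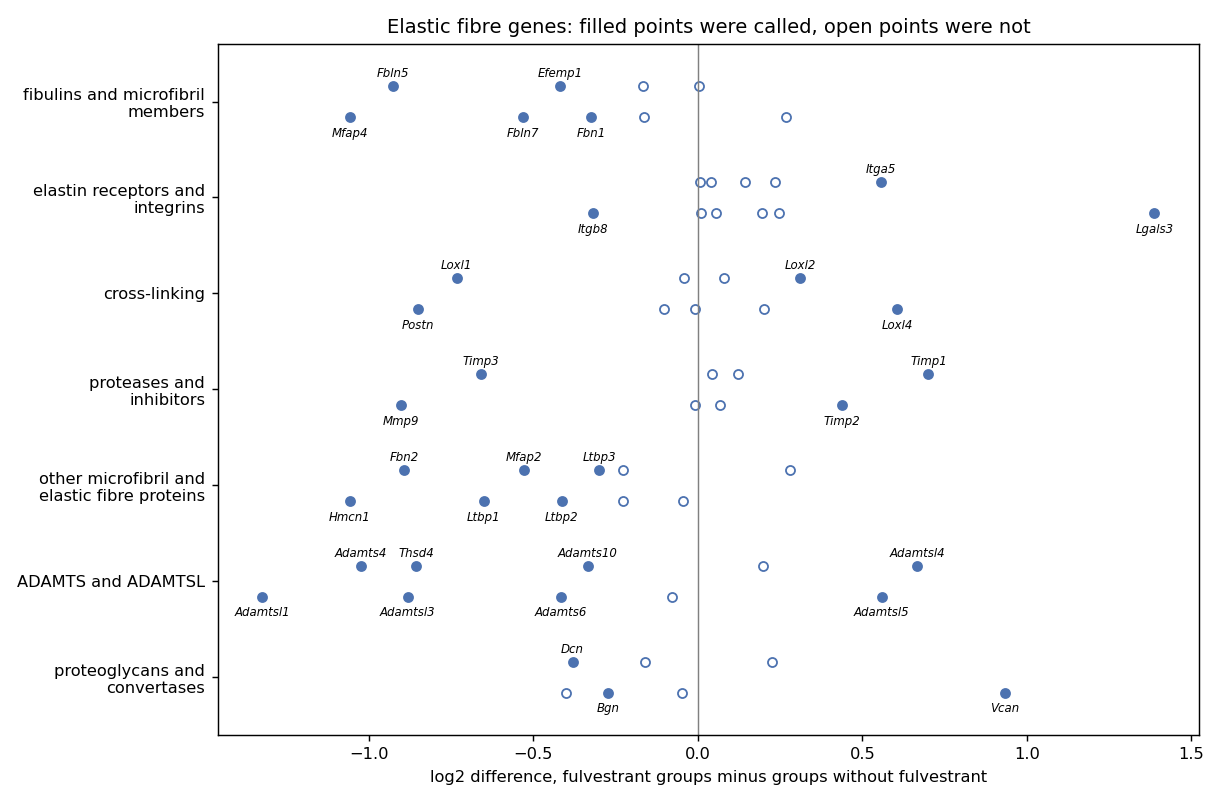
Log2 change with fulvestrant, averaged over cultures with and without E2, of the 9 members and the 55 other elastic fiber genes by list; each point is a gene, filled points were called and named, and height within a row has no meaning. All 5 called members and all 6 called genes of the other microfibril proteins lie below 0, while the remaining lists hold called genes on both sides.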

How the data were processed

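RNA-Seq libraries (ribosomal RNA depleted, paired ends) were trimmed with Trimmomatic 0.39, aligned to mm10 with STAR 2.5.2 and counted by gene on the reverse strand with HTSeq 0.13.5. The authors removed counts below 10 and deposited normalized counts, a signal per gene scaled by the median of ratios of DESeq2 1.37. In the deposited values the replicate number took up 70.0% of the variance over all genes. Of 13233 identifiers, 13149 matched a symbol. Values were taken as log2(normalized count + 1) and fitted with limma 3.58.1 in R 4.3.3 on all 12 samples with group and replicate number as terms, a variance trend and Benjamini-Hochberg adjustment over all genes. The fit was tested on simulated data in which every changed gene moved alike in all replicate numbers. That test does not cover genes whose change differed between replicate numbers. The numbers were taken to pair the samples, and the deviations from the group means correlated at 0.63 to 0.92 in all 18 same-numbered pairs. Different-numbered pairs ran from −0.86 to 0.79 over 36 pairs, replicates 2 and 3 being alike. Since these ranges overlap, the check cannot settle how samples numbered 2 and 3 pair. Samples were grouped by the treatment in the labels. Gene positions and exon lengths are from GENCODE on GRCm38, and promoter windows of 250 bases from RefSeq on GRCm38.p6. Named pathway genes were the up to 3 largest called changes per list and fulvestrant contrast, plus Lox, Loxl1, Fbn2, Mfap2 and Ltbp4. Loxl2, Adamts6 and the called genes named in the plot were added after their values were seen. The genes most like a member were ranked by Pearson r after taking off replicate means. Alternatives changed the pseudocount (0.5 or 8), scaling, filter (a mean of at least 100), variance trend, block, samples fitted and threshold. Members, lists and tests were chosen with earlier results of these data known.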

Additional observations from a re-analysis of the deposited data

How the results depend on the processing

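The fits without the replicate block called 0 of 9 members in each fulvestrant contrast, in place of 5 (E2 plus fulvestrant minus E2), 3 (fulvestrant minus vehicle) and 5 (their average). Over all genes the block moved the counts of calls from 1270 to 69, from 1648 to 72 and from 2054 to 310, and for E2 minus vehicle from 10 to 1. It changed no other call of a member. With both pseudocounts, CPM scaling, quantile normalization, no variance trend and a mean of at least 100, the members called were as many as in the report, and adjusted p alone added Efemp2 in 2 contrasts. Fits on only the groups compared, with the block, called 692 genes between fulvestrant and vehicle and 57 between E2 and vehicle, and lost Fbln5 in the former. The fit of all 12 samples without a variance trend called 3 genes between E2 and vehicle, in place of 10. Leaving out a sample gave 3 to 5 members in E2 plus fulvestrant minus E2, 3 to 4 in fulvestrant minus vehicle, 4 to 5 in their average and 0 in E2 minus vehicle; leaving out a replicate number gave 2 to 7, 1 to 5, 4 to 6 and 0 to 1. With a sample left out, all genes called were 772 to 1543, 1048 to 2061, 1832 to 2295 and 2 to 18 in these contrasts, and with a replicate number left out 316 to 1611, 399 to 2312, 1335 to 2332 and 0 to 59. Adjusted p alone gave 3752 for the average. Without replicate 1, Fbln1 reversed to −0.31 in E2 plus fulvestrant minus E2, where the fits that left out a replicate number ranged from −0.31 to 0.52; the causes of these shifts were not tested. Of 971 values of members that were uncalled, 71 changed sign, 20 of them of Fbln2 and 16 of Fbln1. The edgeR and DESeq2 tests planned as alternatives were not run, although the values of each library were whole multiples of a step. With 3 samples per group, the calls of Fbln5 and Fbn1 were lost when single samples were left out; the lowest value of any member was 905 normalized counts.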

Other observations

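Splits between replicates like that of Fbln1 were looked for with a cut of 1 on the log2 scale. That cut lies below the rises of Fbln1 itself (1.25 and 1.30), so the count depends on it. Fbln2 split the same way by less and does not pass the cut (0.18 and 0.26 in replicate 1, −0.17 to −0.07 in the others). In replicate 1, 134 of 13233 genes were higher by over 1 on the log2 scale in both fulvestrant contrasts, and 3 of these were lower in replicates 2 and 3 in both: A4galt, the prolactin receptor gene Prlr, and Fbln1. The mirrored pattern was found in 150 genes for replicate 1 and in 1 gene for all replicates. These genes were chosen after their values were seen, and the difference between replicates was not tested.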
